A study of Mus musculus with 4 samples.

Results

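The genes described here encode the proteasome, its immune variant, its activators and its assembly factors in mouse lung tumour cells. They were taken by symbol, as every gene named Psma to Psmg followed by a number, which gave 50 of the 17746 gene symbols in the deposited table. Of these, 46 encode proteasome proteins: 7 alpha subunits, 4 structural beta subunits, 3 constitutive catalytic subunits, 3 immunoproteasome subunits, 6 ATPases and 11 other subunits of the 19S particle, 7 assembly chaperones, 4 activators and the regulator PI31. The other 4 are Psme2b, an intronless copy of Psme2, the pseudogenes Psma5-ps and Psmb6-ps2, and Psmc3ip, which shares the name stem but encodes a protein of meiotic recombination. Psmd5, Psmd9 and Psmd10 were placed with the chaperones because their proteins leave the finished particle.

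The cells came from lung tumours of mice carrying floxed Rb1 and Trp53 (Rb1fl/fl; Trp53fl/fl), which develop tumours resembling small cell lung cancer, crossed with a GFP-LC3-RFP-LC3ΔG knock-in reporter of autophagy. Both groups carry these alleles, both were sorted as live, EpCAM-positive and RFP-positive cells, and they differ in GFP, with 2 GFP-positive and 2 GFP-negative libraries. The sample titles assign high autophagic flux to the GFP-positive cells and the series' design text assigns it to the GFP-negative cells, so the groups carry their GFP names here and nothing is said of flux. A change above 0 means a higher level in the GFP-negative libraries. How Rb1 and Trp53 were deleted, the age of the mice, and whether tumours were pooled are details the sources used here do not give, nor is it said that replicates are separate mice. The p-values therefore measure only the spread between these libraries.

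The proteasome degrades proteins tagged with ubiquitin, and with autophagy it carries most protein breakdown in a cell. Its 20S core is a barrel of alpha and beta rings with proteolytic sites on the beta subunits Psmb5 (chymotrypsin-like), Psmb6 (caspase-like) and Psmb7 (trypsin-like). The 19S particle binds ubiquitinated proteins, unfolds them with its ATPases and feeds them into the core. In immune cells, and in other cells exposed to interferon gamma, Psmb8, Psmb9 and Psmb10 can take the places of Psmb5, Psmb6 and Psmb7, which changes the peptides made for display on MHC class I.

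Libraries held 51994432 to 73997175 counts, but GFP-positive replicate 1 had counts for 6063 genes against 15710 to 17617 in the others, so it stands apart and results are given with and without it. Levels are CPM, counts per 1000000 of the TMM-scaled library total, unless FPKM (the authors' values per gene length and depth) is named. The 15 macrophage markers in the table summed to 122864 and 70512 CPM in the GFP-positive libraries and to 1298 and 22347 CPM in the GFP-negative ones. All 15 had a fitted change below 0 and 3 passed the test as lower, against 0.092% of all tested genes. Epcam, the surface protein used in the sort, stood at 94.0 and 65.9 CPM (GFP-positive) against 255 and 88.9 CPM (GFP-negative). The 12 markers of neuroendocrine tumour and epithelium summed to 1285 to 6635 CPM. Of their changes 11 were above 0 (against 11102 of 16301 over all tested genes) and 0 were called (against 0.0982%). Hepatocyte genes summed to 27262 CPM in GFP-positive replicate 1 and to 23.5 to 319 CPM in the other libraries.

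No proteasome gene passed the test for a difference between the groups. All 50 were tested, and 0 passed an adjusted p of 0.05 by edgeR's quasi-likelihood F test (Benjamini-Hochberg adjusted over all genes), against a background of 16 of 16301 genes (0.0982%), made up of 0.092% with a lower and 0.00613% with a higher level in GFP-negative libraries. No member had an unadjusted p under 0.05, while 505 of all tested genes (3.10%) did. DESeq2's Wald test also called 0 members. The smallest unadjusted p among members was 0.250, for Psmd2. Fitted changes were above 0 for 27 members and below 0 for 23, with a median log2 change of 0.14 against 0.91 over all tested genes. Without GFP-positive replicate 1 these became 36 above and 14 below, with a median of 0.32 against 0.29 over the genes tested in that fit. Without GFP-negative replicate 2 they became 18 above and 32 below, with a median of -0.66 against 0.74, and without GFP-negative replicate 1 37 above and 13 below, with a median of 0.69 against 0.40. Libraries of a group varied strongly: edgeR's common biological coefficient of variation was 1.92, and no member had a standard error below 1.01 on the log2 scale. An interval of that width does not show that the groups had equal levels.

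**Figure D1:**
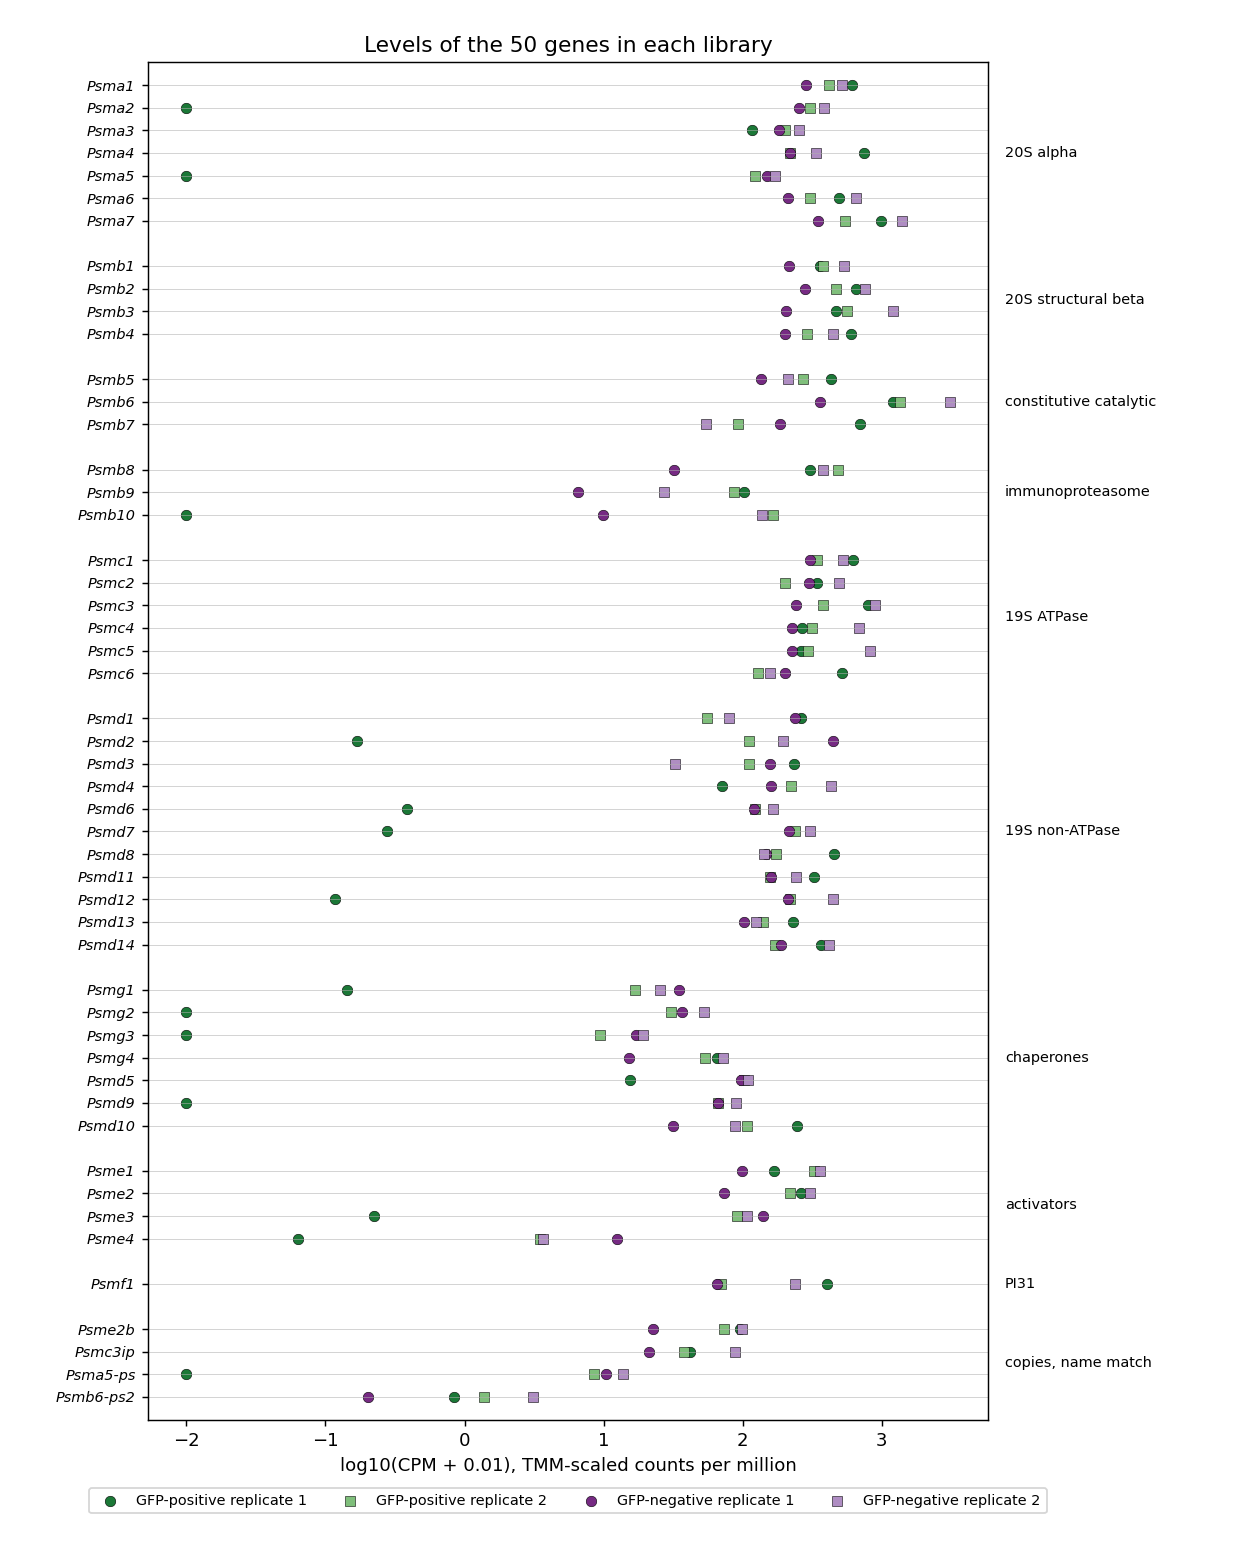
Levels of the 50 genes by class. Each point is 1 library, the x axis is log10 of CPM plus 0.01, and genes with 0 counts lie at -2. The 14 genes under 15 counts in GFP-positive replicate 1 have its point well to the left of the other 3.

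The alpha subunits, which form the outer rings and the gate of the core, were well counted in every library, except for Psma2 and Psma5 in 1. Psma7 was at 996 and 549 CPM (GFP-positive) against 351 and 1395 CPM (GFP-negative). The groups overlapped, since GFP-negative replicate 1 was lowest and GFP-negative replicate 2 highest. Psma2 was at 0 and 303 CPM (GFP-positive) against 253 and 383 CPM (GFP-negative), a log2 change of 1.07 ± 1.95 (SE, adjusted p = 1.0 by edgeR). Psma5 was at 0 and 123 CPM (GFP-positive) against 150 and 170 CPM (GFP-negative), so its groups did not overlap. For both genes the low value is the 0 of GFP-positive replicate 1, where 3 counts would be 0.080 CPM. Without that library the change of Psma2 was 0.07. Across the libraries Psma1 ranged from 286 to 613 CPM, Psma3 from 117 to 253 CPM, Psma4 from 218 to 750 CPM and Psma6 from 211 to 655 CPM, each with overlapping groups. The class median was 0.18 with all libraries and 0.33 without it, with 5 and then 6 of the 7 alpha subunits above 0. It was 0.71 without GFP-negative replicate 1 and turned to -0.19 without GFP-positive replicate 2 and to -0.78 without GFP-negative replicate 2.

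The structural beta subunits Psmb1 to Psmb4, which hold the inner rings together without cutting, were well counted in every library. Across the libraries Psmb1 ranged from 214 to 532 CPM, Psmb2 from 280 to 754 CPM and Psmb4 from 200 to 605 CPM. Psmb3 was at 466 and 567 CPM (GFP-positive) against 206 and 1205 CPM (GFP-negative), a log2 change of 0.45 ± 1.40 (SE). None of the 4 was under 15 counts anywhere, and in each the GFP-negative libraries lay on both sides of the GFP-positive ones or among them. In all 4 genes GFP-negative replicate 1 was the lowest library.

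Of the constitutive catalytic subunits, Psmb5 and Psmb7 were highest in GFP-positive replicate 1 and Psmb6 in GFP-negative replicate 2. Psmb6 was at 1201 and 1350 CPM (GFP-positive) against 361 and 3089 CPM (GFP-negative), a log2 change of 0.44 ± 1.01 (SE). Per length it was the most abundant of the 31 constitutive subunits in 3 libraries, at 414, 585 and 1372 FPKM, while Psmb2 led in GFP-negative replicate 1 at 314 FPKM. Psmb5, the chymotrypsin-like subunit and the site that bortezomib binds, was at 433 and 272 CPM (GFP-positive) against 136 and 212 CPM (GFP-negative), a log2 change of -1.02 ± 1.88 (SE, adjusted p = 1.0 by edgeR). Its groups did not overlap in CPM or in FPKM, where it stood at 311 and 246 against 205 and 196. Psmb7, the trypsin-like subunit, was at 695 and 92.8 CPM (GFP-positive) against 187 and 54.7 CPM (GFP-negative), a log2 change of -1.71 ± 1.92 (SE). It was high in both replicates numbered 1 and low in both numbered 2, the reverse of Psmb6, and its change was 0.37 without GFP-positive replicate 1. An exon of Psmb7 overlaps Nek6 on the other strand, and reads of the overlap cannot be assigned without strand.

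All 3 immunoproteasome genes had a fitted change below 0, with and without GFP-positive replicate 1, and none passed the test. Psmb9 was at 103 and 87.3 CPM (GFP-positive) against 6.52 and 27.2 CPM (GFP-negative). Its groups did not overlap, but the change of -2.49 ± 3.49 was smaller than its standard error (adjusted p = 1.0 by edgeR), and it was -2.38 without GFP-positive replicate 1. Psmb8 was at 306 and 485 CPM (GFP-positive) against 32.3 and 376 CPM (GFP-negative), a log2 change of -0.96 ± 1.80 (SE). Here the groups overlapped, because GFP-negative replicate 2 lay between the GFP-positive libraries. Psmb10 was at 0 and 166 CPM (GFP-positive) against 9.82 and 137 CPM (GFP-negative), a log2 change of -0.17 ± 2.90 (SE). Both libraries numbered 1 were low for Psmb10, and its change ran from -3.09 to 15.37 as single libraries were left out. The class median was -0.96, and -1.25 without GFP-positive replicate 1, against 0.91 and 0.27 over all tested genes. It was -0.08 without GFP-negative replicate 1, -0.59 without GFP-positive replicate 2 and -3.58 without GFP-negative replicate 2.

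The order of the libraries for Psmb9 was that of the summed macrophage markers: GFP-positive replicate 1 highest, GFP-negative replicate 1 lowest. The 5 erythroid markers had the same order, with sums of 45369 and 14332 CPM (GFP-positive) against 1572 and 5389 CPM (GFP-negative). All 5 had a change below 0 and 2 were called lower, against 0.092% of all tested genes. For Psmb8 and Psmb10 the order differed from that of the macrophage and erythroid sums. Among the macrophage markers only Fcer1g had the order of Psmb8, at 1545 and 4806 CPM (GFP-positive) against 52.3 and 2077 CPM (GFP-negative). Only Mrc1 among them had the order of Psmb10, at 0.107 and 26.1 CPM (GFP-positive) against 1.78 and 4.9 CPM (GFP-negative). Lyz2, the lysozyme gene of macrophages, was at 43154 and 19819 CPM (GFP-positive) against 480 and 8635 CPM (GFP-negative). Markers of other leukocytes summed to 270 and 688 CPM (GFP-positive) against 124 and 271 CPM (GFP-negative). That is the order of Psmb8, though 270 and 271 CPM are nearly equal. Of these markers 9 of 10 were at 0 in GFP-positive replicate 1, among them Ptprc, the pan-leukocyte antigen CD45. Cd3g, Nkg7, Cd79a and Cd79b had the order of Psmb10, and the rest of the 10 did not. The part of these cells in the immunoproteasome values was not tested. In bulk libraries fewer cells of a type and less RNA per cell cannot be told apart.

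Within a library, shares of FPKM do not depend on how libraries are scaled. The 3 immunoproteasome genes made up 8.21% and 20.1% (GFP-positive) against 4.10% and 9.46% (GFP-negative) of the FPKM of the 6 catalytic subunits. The means were 14.2% ± 8.40 (SD, n = 2) and 6.78% ± 3.79 (SD, n = 2), and the groups overlapped (exact two-sided permutation p = 0.667). With counts in place of FPKM the difference was -12.3 percentage points in place of -7.37, and the exact permutation p was 0.333. The smallest p that 2 libraries against 2 can give is 0.333. Over the 12 relations tested this way, 4 reached that smallest value, and the lowest adjusted p was 0.889.

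The pairs of subunits that compete for a site differed in pattern. Psmb9 was 4.19% and 3.20% of Psmb9 plus Psmb6 (GFP-positive) against 0.914% and 0.448% (GFP-negative), with no overlap between groups (means 3.70% ± 0.698 and 0.681% ± 0.330, SD, n = 2, exact permutation p = 0.333). Psmb8 was 15.8% and 32.1% of Psmb8 plus Psmb5 (GFP-positive) against 5.92% and 32.0% (GFP-negative). Both libraries numbered 2 thus held nearly the same share, whichever group they belonged to. The level of a share rests on gene length, and FPKM and counts implied 3862 bases for Psmb8 and 1027 for Psmb5. In counts Psmb8 exceeded Psmb5 in both libraries numbered 2 (30910 against 17367, GFP-positive, and 25024 against 14117, GFP-negative). It was below Psmb5 in both numbered 1 (11493 against 16237, GFP-positive, and 3663 against 15485, GFP-negative). Psmb10 was 0% and 78.2% of Psmb10 plus Psmb7 (GFP-positive) against 9.53% and 83.4% (GFP-negative). By these values the RNA for the trypsin-like site was mostly Psmb7 in both libraries numbered 1 and mostly Psmb10 in both numbered 2. The difference between replicate numbers was larger there than that between the GFP groups. In GFP-positive replicate 1 the share rests on 0 counts of Psmb10. Of genes with at least 1000 counts in each of the other 3 libraries, 53.4% had fewer than 15 counts in that library. Whether the 0 is a true absence was not tested.

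**Figure D2:**
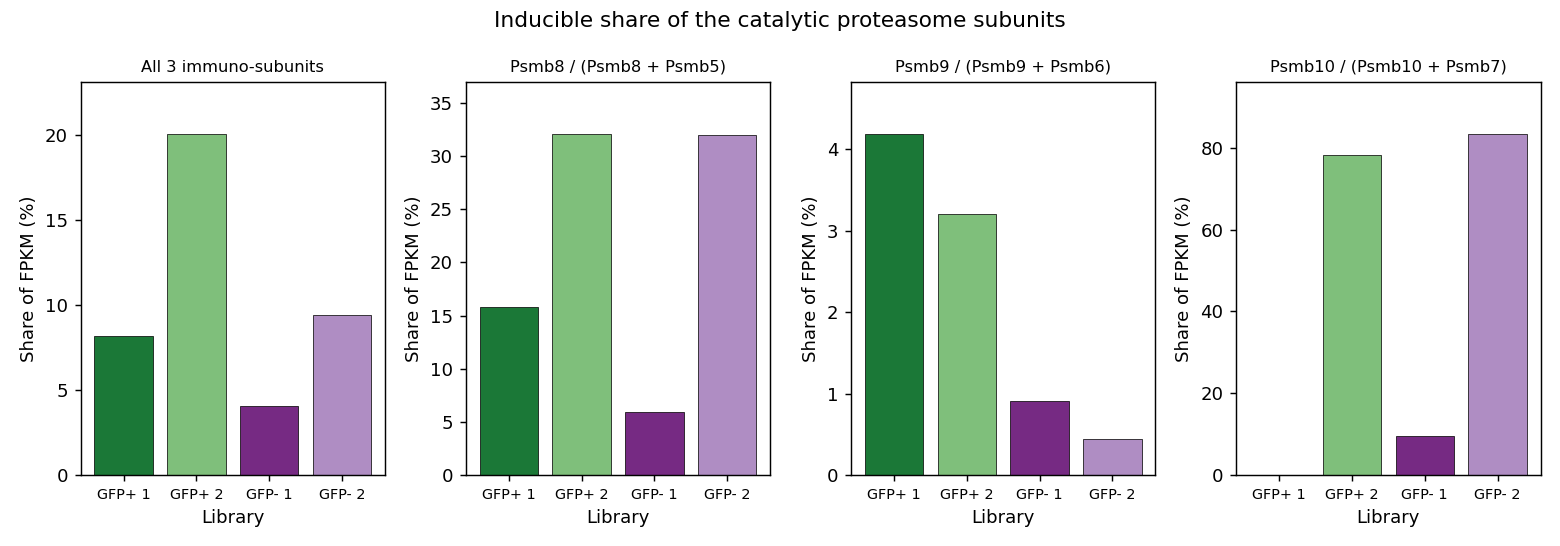
Share of each immunoproteasome gene among itself and the constitutive subunit it replaces, in percent of FPKM, with 1 bar per library from 0. Psmb9 is higher in both GFP-positive libraries (4.19% and 3.20%) than in both GFP-negative ones (0.914% and 0.448%), while Psmb10 separates replicate numbers. The Psmb10 share of GFP-positive replicate 1 rests on 0 counts, in a library where many well counted genes are near 0.

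The genes Psmb9 and Psmb8 lie in the MHC region beside the peptide transporter genes that deliver proteasome products for class I loading. In GENCODE M21 (build GRCm38, the same as mm10), Psmb9 spans chr17:34181987-34187764 on the minus strand and Psmb8 chr17:34197721-34201454 on the plus strand. Tap1 lies between them at chr17:34187553-34197225 on the plus strand and overlaps an exon of Psmb9, so reads of the overlap cannot be told apart in libraries without strand. Tap1 was at 298 and 41.4 CPM (GFP-positive) against 9.87 and 11 CPM (GFP-negative). Tap2, at chr17:34203527-34216321, was at 0 and 69.2 CPM (GFP-positive) against 18.5 and 20.2 CPM (GFP-negative). Psmb10 lies elsewhere, at chr8:105935735-105938444.

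Promoter windows from RefSeq (GRCm38.p6, from 250 bases before to 50 after the start) were found for 39 of the 46 proteasome genes. The copies and Psmc3ip were not looked up. Both strands were searched for the core of the antioxidant response element bound by NRF2 (TGACNNNGC) and for the interferon gamma activated sequence (TTCNNNGAA). They were also searched for the core of the interferon-stimulated response element (GAAA, any 2 bases, GAAA). The sites below are shown because they lie in the windows of a competing subunit pair, Psmb5 and Psmb8, of the most abundant subunit Psmb6, and of the interferon-inducible activator Psme1. Capitals mark the match, and none of these windows held a second motif. The RefSeq starts of Psmb8 and Psme1 lie inside their GENCODE spans.
Psmb5, antioxidant core: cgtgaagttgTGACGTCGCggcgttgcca
Psmb6, antioxidant core: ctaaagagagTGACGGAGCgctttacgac
Psmb8, interferon gamma sequence: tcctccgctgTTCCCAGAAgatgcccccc
Psme1, interferon-stimulated core, read from the opposite strand: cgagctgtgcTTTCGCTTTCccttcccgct
They lie at chr14:54618024-54618052 (minus strand), chr11:70525338-70525366 (plus), chr17:34198088-34198116 (plus) and chr14:55578493-55578522 (plus). The antioxidant core was in 4 of 25 windows of constitutive subunits (16%) and in 14% of all 27025 windows. It was also in 1 of 4 activator windows (25%, Psme4) and in 1 of 6 chaperone windows (16.7%, Psmd9). The interferon gamma sequence was in 1 of 3 immunoproteasome windows, against 9.55% of all windows. It was also in 1 of 25 windows of constitutive subunits (Psmd2) and in 1 of 6 of chaperones (Psmg1). The windows of Psmb9 and Psmb10 held none of the 3 motifs. The interferon-stimulated core was in 1 of 4 activator windows and in 3.99% of all windows. It was also in 2 of 25 constitutive windows (8%, Psmb3 and Psmd4) and in 2 of 6 chaperone windows (33.3%, Psmd9 and Psmg4). A match of letters is a description of the window and not a measured binding site.

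The 19S ATPases, Psmc1 to Psmc6, form the ring that unfolds substrates. All 6 had at least 8295 counts in every library other than GFP-positive replicate 1 and at least 9836 in that one. Psmc5 was at 262 and 294 CPM (GFP-positive) against 225 and 821 CPM (GFP-negative), a log2 change of 0.91 ± 1.63 (SE). Psmc3 ranged from 240 to 890 CPM and Psmc4 from 227 to 692 CPM, and both were highest in GFP-negative replicate 2 and lowest in GFP-negative replicate 1. The groups of Psmc1 (307 to 624 CPM) and Psmc2 (203 to 489 CPM) overlapped as well in CPM. In the authors' FPKM the groups of Psmc1, Psmc2, Psmc4 and Psmc5 did not overlap and were higher in GFP-negative libraries. Psmc6 went the other way within the group, at 202 and 158 CPM. The fitted change was above 0 in 3 of the 6 ATPases with all libraries, and in all 6 without GFP-positive replicate 1 (class median 0.25 and 0.57). Without GFP-negative replicate 2 it was below 0 in 5 of the 6, with a class median of -0.45, and without GFP-positive replicate 2 the median was -0.14.

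Among the 11 other 19S subunits, the scaffold subunit Psmd2 had the largest fitted change of any constitutive subunit. It was at 0.160 and 112 CPM (GFP-positive) against 444 and 196 CPM (GFP-negative), a log2 change of 2.51 ± 2.18 (SE, adjusted p = 1.0 by edgeR). The groups did not overlap, and without GFP-positive replicate 1, where it had 6 counts, the change was 1.50. Psmd12, a subunit of the 19S lid, was at 0.107 and 218 CPM (GFP-positive) against 211 and 445 CPM (GFP-negative), a log2 change of 1.59 ± 2.02 (SE, and 0.59 without that library). Psmd14, the deubiquitinase of the lid, was at 367 and 172 CPM (GFP-positive) against 190 and 417 CPM (GFP-negative), with overlapping groups. Psmd4, a ubiquitin receptor, was at 71.0 and 222 CPM (GFP-positive) against 161 and 435 CPM (GFP-negative). Psmd1, the other large scaffold, was at 262 and 55.7 CPM (GFP-positive) against 238 and 79.7 CPM (GFP-negative), so it too was high in both replicates numbered 1. Psmd8 and Psmd13 were lower in both GFP-negative libraries, at 148 and 142 CPM against 454 and 173 CPM for Psmd8. Psmd13 was at 103 and 125 CPM against 230 and 140 CPM, and an exon of it overlaps Sirt3. Psmd3 ranged from 32.8 to 233 CPM and Psmd11 from 156 to 325 CPM with overlap. Psmd6 (0.373 to 166 CPM) and Psmd7 (0.267 to 307 CPM) were lowest in GFP-positive replicate 1.

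Without overlap between groups in CPM, 5 of the 50 members were lower in GFP-negative libraries (against 6.63% of all tested genes) and 8 were higher (against 25.2%, and 31.8% in either direction). The 5 were Psmb5, Psmb9, Psmd8, Psmd10 and Psmd13. The 8 were Psma5, Psma5-ps, Psmd2, Psme3, Psme4, Psmg1, Psmg2 and Psmg3, each of which had fewer than 15 counts in GFP-positive replicate 1. In the authors' FPKM, which carry no TMM factor, 3 members were lower (Psmb5, Psmb9 and Psmd10, against 4.53% of genes) and 21 higher (against 31.6% of genes). Both counts depend on the scaling of the libraries. Psmb5, Psmb9 and Psmd10 were lower on both scales, and the 8 members higher in CPM were higher on both. The rest of the 21 had overlapping groups in CPM. They were Psma2, Psma3, Psmc1, Psmc2, Psmc4, Psmc5, Psmd4, Psmd5, Psmd6, Psmd7, Psmd9, Psmd12 and Psmd14.

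**Figure D3:**
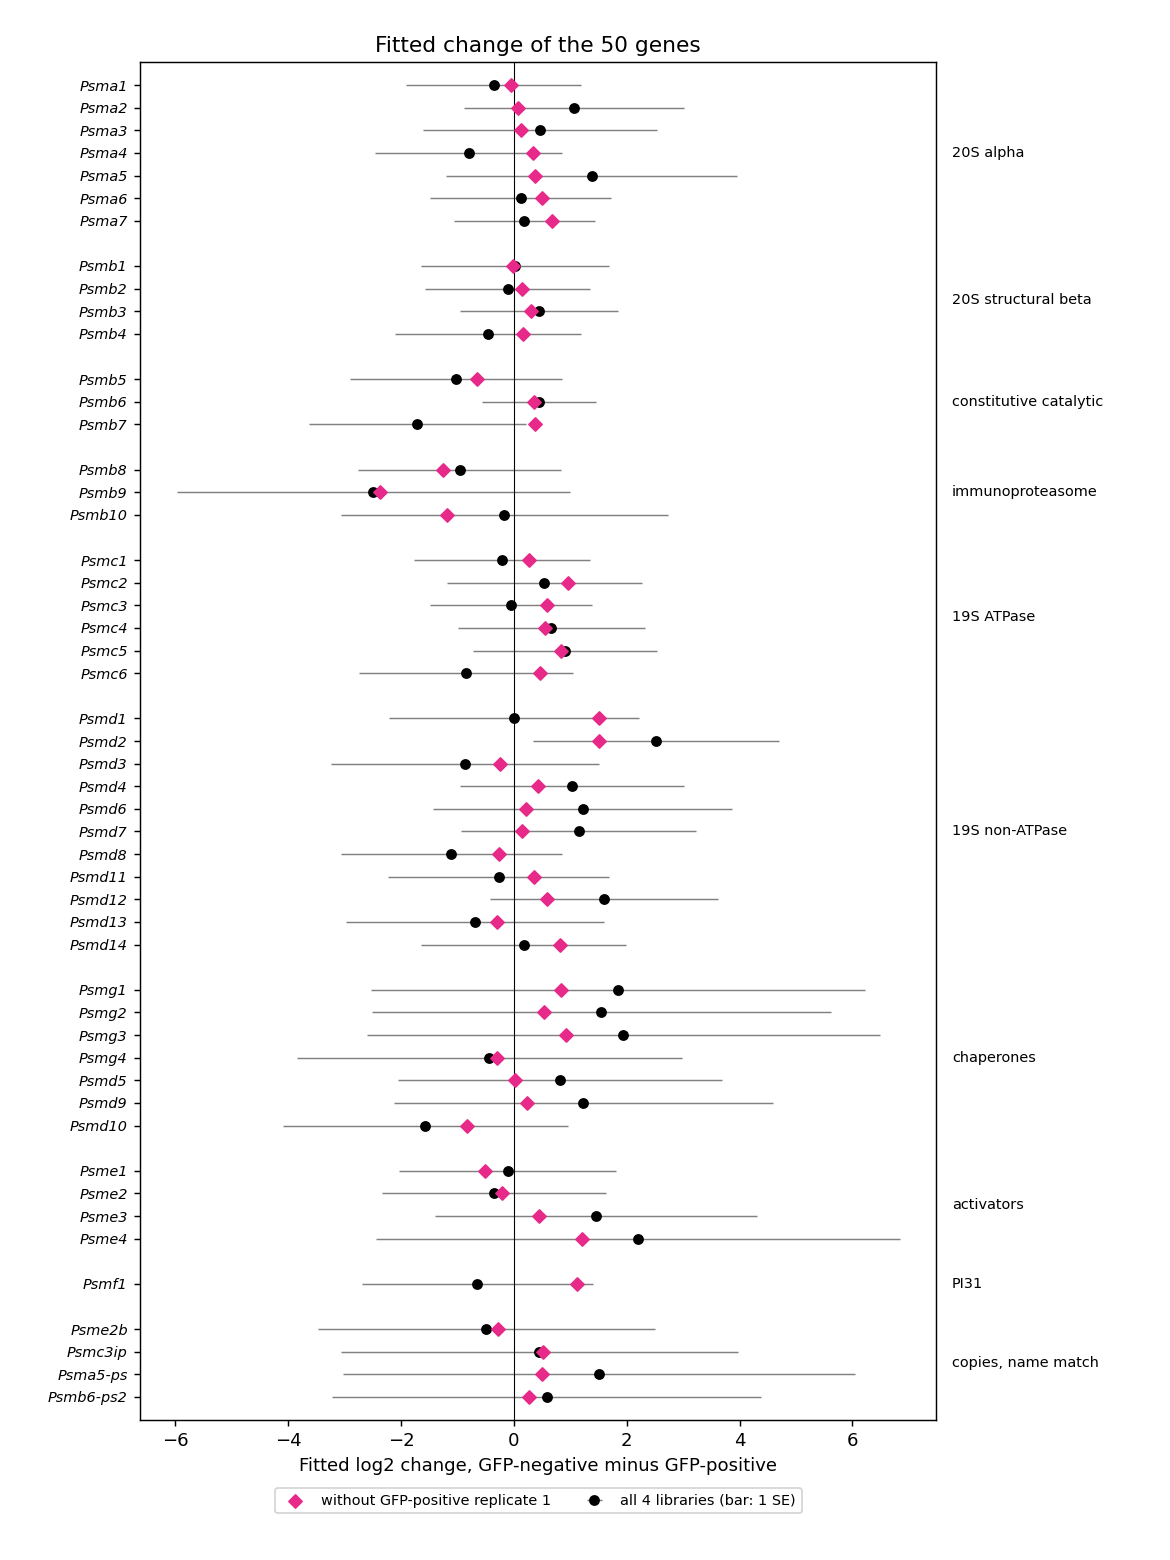
Fitted log2 change of each member, GFP-negative minus GFP-positive, from edgeR. Bars are ± 1 SE and diamonds give the change without GFP-positive replicate 1. Psmg1, Psmg2, Psmg3, Psmd2, Psmd6, Psmd7 and Psmd12 move toward 0 without that library, and the 3 immunoproteasome genes stay below 0.

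GFP-positive replicate 1 showed constitutive subunits either at high counts or nearly none. Of the 31 constitutive 20S and 19S subunits, 6 had fewer than 15 counts there: Psma2 and Psma5 with 0, Psmd12 with 4, Psmd2 with 6, Psmd7 with 10 and Psmd6 with 14. The other 25 had 2663 to 45052 counts, and none lay between. In the other 3 libraries no constitutive subunit was below 2182 counts. Of all 2770 genes with at least 2182 counts in each of those 3 libraries, 1177 (42.5%) were under 15 counts in GFP-positive replicate 1, and 70 lay between 15 and 499. The share among constitutive subunits was 19.4%. The 6 subunits had a median of 0.133 CPM there and of 170, 214 and 252 CPM in GFP-positive replicate 2 and GFP-negative replicates 1 and 2. The 25 had medians of 454, 272, 211 and 448 CPM in the same order of libraries. Psma2 and Psma5 are obligatory parts of the alpha ring, as are Psmd2, Psmd6, Psmd7 and Psmd12 of the 19S particle.

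The subunits of a particle that holds them in equal numbers differed widely in RNA. Over the 31 constitutive subunits the SD of log2(FPKM + 1) was 2.90 and 1.37 in the GFP-positive and 0.83 and 1.76 in the GFP-negative libraries. Over the 25 subunits with 15 or more counts in GFP-positive replicate 1 it was 1.34, 1.48, 0.89 and 1.93. GFP-negative replicate 1 had the narrowest spread, and GFP-negative replicate 2, in which Psmb6 reached 1372 FPKM and Psmd3 was at 5.48 FPKM, the widest on the 25.

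Per length, 20S subunits were more abundant than 19S subunits in every library. The median FPKM of the 14 constitutive 20S subunits was 167 and 117 in GFP-positive and 135 and 168 in GFP-negative libraries. That of the 17 subunits of the 19S particle was 43.6 and 45.7 in GFP-positive and 81.2 and 80.9 in GFP-negative libraries. The log2 ratio of the medians was therefore 1.94 and 1.36 in GFP-positive and 0.73 and 1.05 in GFP-negative libraries (1.65 ± 0.41 and 0.89 ± 0.23, SD, n = 2). The groups did not overlap, with a difference of -0.75 and an exact two-sided permutation p of 0.333, the smallest this design allows. The difference stayed below 0 in every alternative run, from -0.46 to -1.04 as single libraries were left out and at -0.48 from summed FPKM. Differences between libraries moved with gene length in some pairs: over the 46 proteasome genes, the log2 difference of GFP-positive replicate 2 over GFP-negative replicate 1 had a Pearson correlation of -0.37 with log2 length, and over GFP-negative replicate 2 of 0.10. The part of length in the 20S to 19S ratio was not tested.

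**Figure D4:**
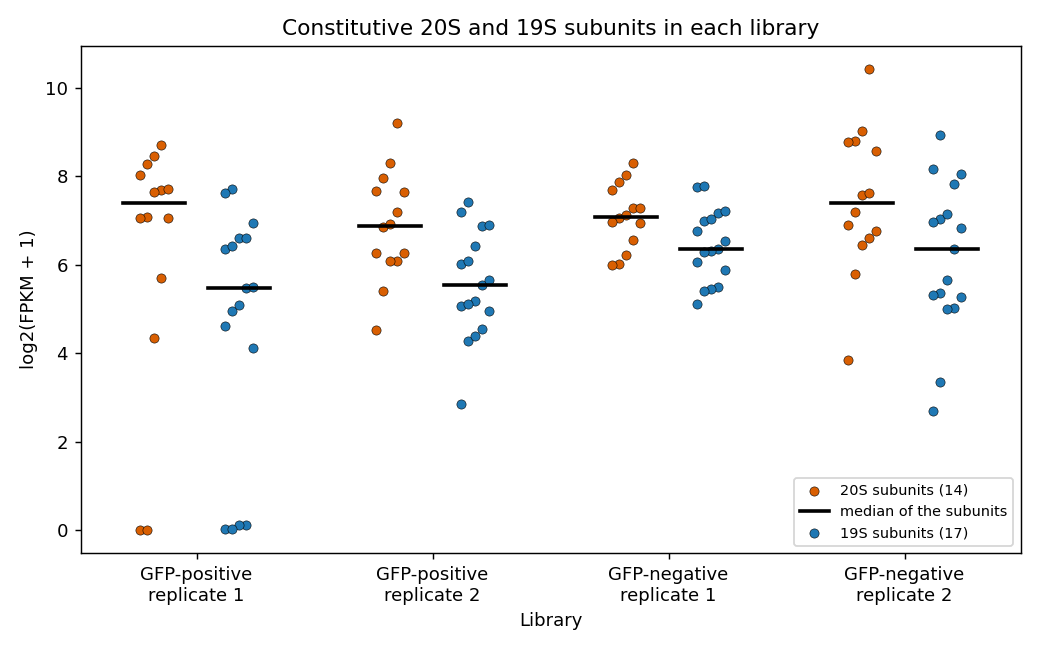
FPKM of the 14 constitutive 20S and 17 constitutive 19S subunits in each library, on a log2 scale, with medians as black bars. The 20S medians (117 to 168 FPKM) lie above the 19S medians (43.6 to 81.2 FPKM) in each library, and the gap is narrower in the GFP-negative libraries.

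The assembly chaperones were the class most often near 0 counts in GFP-positive replicate 1, with 4 of 7 under 15 counts. Of all genes with at least 200 counts in each of the other 3 libraries, 66.1% were under 15 counts there. With a minimum of 1000 counts that share was 53.4%. The chaperones, at 57.1%, had at least 602 counts in those 3 libraries. Psmg1 and Psmg2, partners in building the alpha ring, were at 0.133 and 16.8 CPM and at 0 and 30.6 CPM in the GFP-positive libraries. In the GFP-negative libraries they were at 34.9 and 25.5 CPM and at 36.7 and 52.5 CPM. Psmg3, a chaperone of the same ring, was at 0 and 9.44 CPM (GFP-positive) against 17 and 19.1 CPM (GFP-negative). Its partner Psmg4 was at 65.1 and 53.7 CPM (GFP-positive) against 15.1 and 72.5 CPM (GFP-negative), with overlap. Psmd10, or gankyrin, a chaperone of the 19S base that also binds the Rb1 protein, was at 248 and 107 CPM (GFP-positive) against 31.8 and 87.6 CPM (GFP-negative). Psmd5 and Psmd9, which act on the same base, were at 15.6 and 0 CPM in GFP-positive replicate 1 and between 66.0 and 109 CPM elsewhere. The class median was 1.23, with 0.23 without GFP-positive replicate 1 and 7.80 without GFP-positive replicate 2.

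Psme1 and Psme2 encode the alpha and beta subunits of PA28, the activator that interferon gamma induces together with the immunoproteasome. Psme1 was at 167 and 328 CPM (GFP-positive) against 98.8 and 360 CPM (GFP-negative), a log2 change of -0.11 ± 1.92 (SE). Psme2 was at 264 and 220 CPM (GFP-positive) against 73.9 and 307 CPM (GFP-negative), a log2 change of -0.35 ± 1.98 (SE). For both genes the GFP-negative libraries held the lowest and the highest value. Psme1 made up 33.6% and 54.3% of the FPKM of the pair (GFP-positive) against 51.7% and 48.4% (GFP-negative). Psme3, which encodes the nuclear PA28 gamma, was at 0.213 and 90.9 CPM (GFP-positive) against 140 and 108 CPM (GFP-negative), a log2 change of 1.45 ± 2.85 (SE, and 0.44 without GFP-positive replicate 1). Psme4, the activator PA200, was per length the lowest of the activators (mean of 0.678 FPKM), at 0.0533 and 3.47 CPM (GFP-positive) against 12.5 and 3.63 CPM (GFP-negative). Psmf1, or PI31, a regulator that binds the core, was at 405 and 69.4 CPM (GFP-positive) against 65.8 and 237 CPM (GFP-negative).

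Reads of near-identical copies may have been divided between genes. Psme2b had 36.5%, 33.2%, 30.6% and 32.0% as many counts as Psme2 in the 4 libraries (GFP-positive first), a nearly fixed ratio although the counts of Psme2 ranged from 8387 to 20446. Over 717 coding bases the pair differ at 5, an identity of 99.3%, and share an unbroken identical run of 311 bases. The stretch of coding positions 484 to 543 shows how little separates them, with the 3 differing bases in capitals.
Psme2: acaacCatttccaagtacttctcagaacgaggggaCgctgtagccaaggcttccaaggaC
Psme2b: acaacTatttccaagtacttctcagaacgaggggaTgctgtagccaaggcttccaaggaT
The first lies in exons within chr14:55588049-55588246 and the second at chr11:48945576-48945635, both on the minus strand of GRCm38. The values of Psme2 and Psme2b are therefore uncertain. Psma5-ps had 6.88%, 6.90% and 8.05% of the counts of Psma5 in the 3 libraries with counts, and both were at 0 in GFP-positive replicate 1. Psmb6-ps2, which is 93.9% identical to Psmb6 over 701 aligned bases, had 0.0538% to 0.101% of its counts. Psmc3ip ranged from 21.1 to 87.4 CPM, with its highest value in GFP-negative replicate 2.

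Genes that act with the proteasome gave no call either. Of 22 further genes for intrinsic subunits, assembly and regulation, 21 were in the table, and 0 passed the test, against 0.0982% of all tested genes. With so low a share, 0 calls in a list of this size says little about its genes. Changes were above 0 for 13 and below for 8, against 11102 above and 5199 below over all tested genes. Pomp, the maturation factor of the core, was at 227 and 401 CPM (GFP-positive) against 117 and 738 CPM (GFP-negative). Adrm1, a ubiquitin receptor of the 19S particle, was at 547 and 263 CPM (GFP-positive) against 114 and 505 CPM (GFP-negative). Their unadjusted p-values by edgeR, 0.79 for Pomp and 0.819 for Adrm1, were not among the smallest of this list. Usp14, with the smallest unadjusted p of the list (0.132 by edgeR), was at 1314 and 45.5 CPM (GFP-positive) against 147 and 77.3 CPM (GFP-negative), with overlapping groups. Nfe2l2, which encodes NRF2, was at 489 and 311 CPM (GFP-positive) against 53.0 and 44.3 CPM (GFP-negative), a log2 change of -3.04 ± 2.11 (SE, adjusted p = 1.0 by edgeR). Its groups did not overlap. Those of Nfe2l1 did, at 6.16 and 9.99 CPM (GFP-positive) against 10.3 and 9.33 CPM (GFP-negative). A link of Nfe2l2 to the levels of proteasome genes was not tested. Of 6 genes for ubiquitin and its activation, 0 passed, against the same 0.0982% of all tested genes, with 5 above 0. The polyubiquitin gene Ubb was at 5680 and 10794 CPM (GFP-positive) against 2863 and 33214 CPM (GFP-negative), with overlapping groups.

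The interferon gamma and class I peptide loading genes, the setting in which the immunoproteasome works, were mostly below 0. Of 18 listed, 17 were in the table, 0 passed the test and 15 had a change below 0, with a median of -1.51 and of -1.74 without GFP-positive replicate 1. Over all tested genes 0.0982% passed, 5199 of 16301 changes were below 0, and these medians were 0.91 and 0.27. B2m, the light chain of class I molecules, was at 6500 and 5354 CPM (GFP-positive) against 323 and 1191 CPM (GFP-negative), a log2 change of -2.97 ± 0.81 (SE, adjusted p = 0.194 by edgeR). H2-D1, a class I heavy chain, was at 7539 and 5138 CPM (GFP-positive) against 889 and 1093 CPM (GFP-negative), a log2 change of -2.68 ± 0.77 (SE, adjusted p = 0.380 by edgeR). Macrophages express these genes too, and the part of the macrophage markers in their values was not tested.

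Leaving out GFP-positive replicate 2 was the only omission that gave calls among the members. Against GFP-positive replicate 1 alone, 13 members were called, each of them higher in GFP-negative libraries (against 42.7% of the 16804 genes tested in that fit called higher and 45.2% called in either direction). They were 13 of the 14 members with fewer than 15 counts in GFP-positive replicate 1, among them Psma2, Psmb10, Psmd2, Psmd12 and Psme3. With GFP-positive replicate 2 in the fit and replicate 1 left out, 0 were called.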

How the data were processed

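Per the labels' protocols, SMARTer chemistry (oligo(dT) priming, template switching, PCR) turned small amounts of total RNA into cDNA, which was fragmented and read in pairs on a NovaSeq instrument. The method marks neither strand nor molecule, and amplification from little RNA can lose or multiply molecules, so the floor of 3 counts covers counting error only. One table of whole-number counts per gene symbol was deposited by the authors. It also holds the authors' FPKM values, per its headers. The submitters' processing notes list cutadapt 1.9, HISAT2 2.2.1, StringTie 2.1.6, DESeq2, edgeR and build mm10. For the counting program, its annotation and its treatment of shared reads, the answer is not given in the sources used here.

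Counts were analysed with edgeR 4.0.16 in R 4.3.3: filterByExpr (minimum count 10) kept 16301 genes, TMM scaled the libraries (factors 0.722, 0.944, 1.54 and 0.956), and glmQLFTest compared the groups, with p-values adjusted (Benjamini-Hochberg) over all tested genes and a threshold of 0.05. Each SE is the size of the log2 change over the root of F. The script was tested on simulated counts with a dispersion far below the common dispersion of these data (3.67). That test therefore does not show which changes the fit can detect here. A count of 3 equals 0.0264 to 0.080 CPM. Shares and ratios used FPKM within a library and exact two-sided permutation tests. Levels of different genes were compared in FPKM, except that catalytic subunits, and copies with their parent genes, were also compared in counts, which are not scaled by gene length. Positions came from GENCODE M21, where 49 of the 50 symbols were placed, and 15 members have an exon that overlaps another gene.

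The members, classes, lists and tests were chosen with earlier results of these data known. Genes named with values are the extremes of each class in level or p and each immunoproteasome, catalytic and activator gene. The other members were added after their values were seen. Alternatives were a replicate block, other filters and scalings, DESeq2 1.42.0, limma 3.58.1 on counts (voom) and on log2 FPKM with pseudocounts of 1 and 0.1, and each library left out. Of the genes in the lists, 2 are not reported here by name; they stayed in every fit and count.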

Additional observations from a re-analysis of the deposited data

How the results depend on the processing

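The count of 0 called members held under each alternative except the omission of libraries, where it ranged from 0 to 13. Over all genes, 16 were called, against 42 with DESeq2's Wald test, 4 with limma-voom, and 0 with genes counted in all 4 libraries, with upper quartile scaling and with limma on FPKM at either pseudocount. Omitting single libraries gave 1 to 7601 calls: 1 without GFP-positive replicate 1, 7601 without GFP-positive replicate 2, and 59 without GFP-negative replicate 2. With a replicate block 21 genes and 0 members were called. The replicate numbers share no stated source: deviations of same-numbered libraries from their group means correlated at -0.0732 over 16301 genes. Another scaling moved the median change of all genes from 0.91 to 1.12 (DESeq2 size factors), 1.33 (library totals) and 0.43 (upper quartile). Members split 27 above 0 and 23 below, 36 and 14 with library totals, and 13 and 37 with upper quartile scaling, which gave class medians from -7.29 to -2.37 for every class it moved.

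Of 14 genes whose change was followed, these turned sign. Psmb3 was at -0.05 with the replicate block, -5.26 with upper quartile scaling and -0.61 with limma-voom, and at -1.28 to 1.22 without single libraries. Psmb6 was at -0.27, -5.33 and -1.10 in the same settings, and at -1.77 to 1.27. Psmb10 was at 4.77 with the replicate block, 4.75 with limma-voom, and 1.45 and 3.03 with limma on FPKM plus 1 and plus 0.1, and at -3.09 to 15.37. Psmc5 was at -4.88 with upper quartile scaling and at -0.26 to 1.56. Psme1 was at 0.21 with library totals, 0.24 with limma on FPKM at either pseudocount, and at -1.29 to 0.54. Psme2 was at 0.03 with library totals and at -1.65 to 0.34, and Psmb7 at -2.85 to 0.37. The cause of these turns was not tested. Psmb5, Psmb8 and Psmb9 stayed below 0 throughout, at -1.31 to -0.65, -3.58 to -0.08 and -3.81 to -1.81 without single libraries. Psma2, Psmd2, Psmd12 and Psme3 stayed above 0 throughout. Without single libraries they were at 0.07 to 17.49, 1.50 to 10.95, 0.59 to 11.56 and 0.44 to 9.17. Each of these had fewer than 15 counts in GFP-positive replicate 1. The difference in immunoproteasome share, -7.37 percentage points, was -13.3 to -1.43 without single libraries, with the value nearest 0 without GFP-positive replicate 2, and -12.3 with counts in place of FPKM. The SD of the 31 subunits in GFP-positive replicate 1 was 2.90, 4.02 with a pseudocount of 0.1 and 4.87 on log2 counts. With 1 library left in a group the fit takes the spread from the other group.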

Other observations

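The replicate numbers, which the labels do not tie to a mouse or a day, divided some members more than GFP did. In 17 of the 50 members (34%, against 24% of all tested genes) both libraries numbered 1 lay below both numbered 2, among them Psmb6, Psmb8, Psmb10 and Psme1. Of the 17, Psma2, Psmb10, Psmd6, Psmd7, Psmd9 and Psmd12 had fewer than 15 counts in GFP-positive replicate 1. In 4 members, Psmb7, Psmc6, Psmd1 and Psmd3, both lay above (8%, against 5.91%).

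Within the GFP-negative group, 37 of the 46 proteasome genes were higher in replicate 2 than in replicate 1, with a median log2 difference of 0.73, against -0.05 over 13875 genes counted in both. Across these 46 genes the difference had a Pearson correlation of -0.43 with log2 gene length as implied by FPKM and counts, and across the 13875 genes -0.41. For GFP-positive replicate 2 over GFP-negative replicate 1 the correlations were -0.37 over the 46 genes and -0.33 over 14498 genes. For GFP-positive replicate 2 over GFP-negative replicate 2 they were 0.10 and 0.14, and for GFP-positive replicate 2 over replicate 1 they were -0.08 over 33 genes and -0.24 over 3775. Genes are not independent replicates, and the points of each correlation share a pair of libraries.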
